A study of Homo sapiens with 4 samples.

Results

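IFIT1, IFIT2, ISG15, OAS1, IRF1, NFKBIA, TNFAIP3, NFKB1 and RELB are interferon-stimulated and NF-kB-linked genes, which cells can switch on when they sense plasmid DNA. They were chosen by name as genes that could respond to transfected DNA, and all 9 were found among the 60708 genes of the count table. The data were 4 TT-seq libraries of HEK293, a human embryonic kidney cell line. TT-seq labels RNA with 4-thiouridine, here for 20 min, and sequences what was labeled, which enriches for newly made RNA, introns included. In all 4 libraries the endogenous RPB1, the largest subunit of RNA polymerase II, carried a degron, a tag through which auxin triggers its destruction. The cells were transfected with a plasmid for RPB1 with a 52X WT C-terminal domain (WT, 2 libraries) or with T4A in each of its repeats (T4A, 2 libraries). Auxin was added 48 h later and kept for 48 h. Both groups were transfected and none was left without plasmid, so the libraries compare T4A with WT RPB1 and hold no measure of a response to transfection itself. Transient transfection also reaches only some of the cells, and its efficiency is not given in the labels. The labels do not say whether the 2 libraries of a group came from separate cultures, so p-values measure the spread between these libraries, which may be technical.

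As background, cytosolic DNA is sensed by cGAS, which signals through STING to the kinase TBK1 and the factor IRF3, and the interferon that follows acts through receptors, JAK kinases and STAT factors on genes with an interferon-stimulated response element (ISRE). NF-kB is a dimer of REL family proteins that IkB proteins hold in the cytoplasm until the IKK complex marks IkB for destruction. NFKBIA and TNFAIP3 are both NF-kB targets and brakes on it, so their transcription is often read as a sign of NF-kB activity.

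The promoters of the chosen genes show which of the 2 routes each gene has letters for. RefSeq promoters (GRCh38.p14) were given for 7 of the 9 genes, and the 250 bases before each start site were searched on both strands. Stretches with a match are printed on the gene's strand, with matches in capitals, to show the letters behind the names interferon-stimulated and NF-kB target. The ISRE core TTTCNNTTTC was found in ISG15 and IFIT1, against 3.02% of 35116 promoters. The ISG15 stretch is chr1:1013364-1013409 on the plus strand, and that of IFIT1 is chr10:89392487-89392539 on the plus strand.
ISG15: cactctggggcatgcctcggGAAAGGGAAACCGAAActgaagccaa
IFIT1: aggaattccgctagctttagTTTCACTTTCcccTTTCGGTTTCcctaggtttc
Each of these holds 2 matches, which overlap in ISG15 and lie side by side in IFIT1. The matches began 113 and 107 bases before the ISG15 start and 116 and 103 bases before the IFIT1 start.

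The kappaB consensus was found in NFKBIA, TNFAIP3, NFKB1 and IRF1, against 9.96% of all promoters. The stretches are chr14:35404811-35404850 on the minus strand (NFKBIA), chr6:137867172-137867213 on the plus strand (TNFAIP3), chr4:102501290-102501329 on the plus strand (NFKB1) and chr5:132490804-132490843 on the minus strand (IRF1).
NFKBIA: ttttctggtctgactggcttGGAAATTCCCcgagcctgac
TNFAIP3: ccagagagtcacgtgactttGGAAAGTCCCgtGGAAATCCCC
NFKB1: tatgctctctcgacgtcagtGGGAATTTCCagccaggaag
IRF1: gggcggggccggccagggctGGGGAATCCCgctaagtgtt
TNFAIP3 holds 2 matches and the others 1 each. The OAS1 promoter and a second promoter of NFKB1 held neither set of letters in this window. Start sites were those of RefSeq, and the ISG15 and IRF1 stretches lie inside the longer gene spans used for counting. A match is a description of the sequence and does not show that a factor was bound. The promoters are referred to below by these matches only.

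Library totals ran from 33188536 to 45605027 counts. T4A replicate 1 stood apart from the others: log2 CPM (counts scaled to library size) correlated at 0.974 to 0.979 with the other libraries, against 0.988 to 0.991 among those. Between 80.5% and 85% of counts from 1 to 50 were even, so counts were not single independent fragments. The transfected gene, POLR2A, which encodes RPB1, had 9640 and 8720 CPM in WT and 7490 and 8080 CPM in T4A, endogenous and plasmid RNA together (log2 fold change −0.24 ± 0.25 (SE), adjusted p = 0.659). Of the genes used to recognize HEK293, NEFL, a neurofilament gene, had 56.2 to 76.6 CPM, and the kidney factors PAX2 and LHX1 had 1.81 to 3.64 CPM. NEFM and NEFH had at most 18 counts. Of 9 blood, vessel and fibroblast markers, 8 were matched, and together they summed to 4.33 and 4.93 CPM in WT and 5.18 and 5.87 CPM in T4A.

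All 9 genes passed the filter on low counts, and none differed between T4A and WT at an adjusted p below 0.05 (edgeR quasi-likelihood test, Benjamini-Hochberg adjustment over 23321 genes). Over all genes tested, 1 passed, or 0.00429%, so almost nothing passed in this comparison. In bulk libraries, fewer cells that make an RNA and less RNA per cell cannot be told apart. At an unadjusted p below 0.05, IRF1 and TNFAIP3 were higher in T4A and none was lower, beside 7.45% of all genes higher and 8.02% lower. Both T4A libraries were above both WT libraries for 4 genes (IRF1, TNFAIP3, IFIT2 and NFKBIA) and below them for none, beside 24.8% of all genes above and 24.7% below. The fitted log2 fold change was above 0 for 8 of 9 genes, beside 11634 of all 23321 genes tested. Its median was 0.22, against a median of −0.00076 and quartiles of −0.19 and 0.26 over all genes tested.

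**Figure D1:**
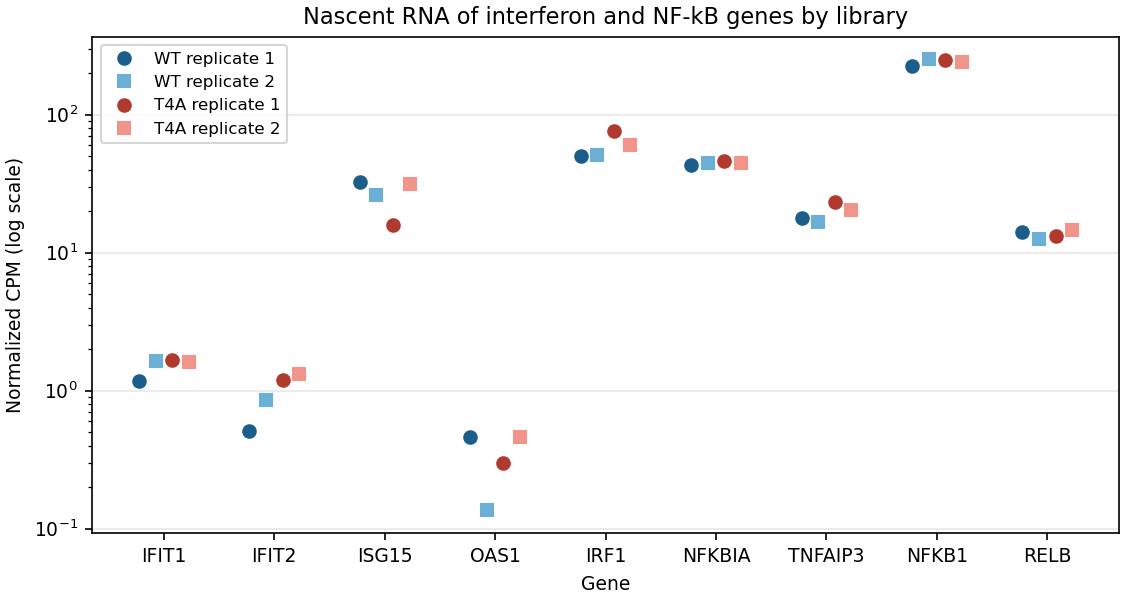
Normalized CPM (log axis) of the 9 genes in each library, with blue points for WT, red points for T4A, circles for replicate 1 and squares for replicate 2. IRF1, TNFAIP3 and IFIT2 lie higher in both T4A libraries, NFKBIA does so only before rounding, and ISG15 lies apart in T4A replicate 1 only, at 16.0 CPM.

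The 9 genes covered a wide range of levels, from genes with few counts to strongly transcribed ones. Levels were compared between genes as CPM per kb of the gene span listed in the table, since introns were counted too. NFKBIA was highest at a mean level of 13.8 CPM per kb, and its range of 13.4 to 14.4 lay clear of every other gene. NFKB1 (2.09 CPM per kb) and ISG15 (1.98 CPM per kb) came next, and the ranges of ISG15 and NFKB1 over the 4 libraries overlapped. TNFAIP3 (1.21 CPM per kb) and IRF1 (0.873 CPM per kb) followed, each with a range that overlapped the one above it. RELB (0.371 CPM per kb), IFIT1 (0.109 CPM per kb), IFIT2 (0.0381 CPM per kb) and OAS1 (0.0124 CPM per kb) closed the order, with no overlap between neighbours.

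The lowest levels were set beside 414 olfactory receptor genes, taken here as genes that HEK293 cells mostly do not use. Their mean level was 0.00468 to 0.00811 CPM per kb in the 4 libraries, and their 95th percentile was 0.048 to 0.0623 CPM per kb. IFIT1 lay above that percentile in every library (0.0843 to 0.12 CPM per kb). Per kb of listed span, IFIT2 (0.02 to 0.052 CPM per kb) and OAS1 (0.00497 to 0.0169 CPM per kb) lay below it but above the mean in every library. The median of the receptor genes was 0 in every library. Whether IFIT2 and OAS1 were transcribed above the background was not tested.

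The order depended on the length used for 3 genes whose listed span is much longer than in RefSeq. ISG15 is listed with 13.4 kb and has 1.04 kb in RefSeq, and per RefSeq kb it was the highest of the 9 genes at 25.4 CPM per kb. IRF1 is listed with 68.28 kb against 9.16 kb, which gives 6.5 CPM per RefSeq kb and the third place. IFIT2 is listed with 25.58 kb against 7.23 kb, which gives 0.135 CPM per RefSeq kb, above IFIT1 at 0.11. That mean also lies above the 95th percentile of the olfactory receptor genes, 0.048 to 0.0623 CPM per kb of listed span. The place of IFIT2 against the receptor genes thus depended on the length used. What part of the reads of ISG15, IRF1 and IFIT2 lies outside the RefSeq gene was not tested.

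**Figure D2:**
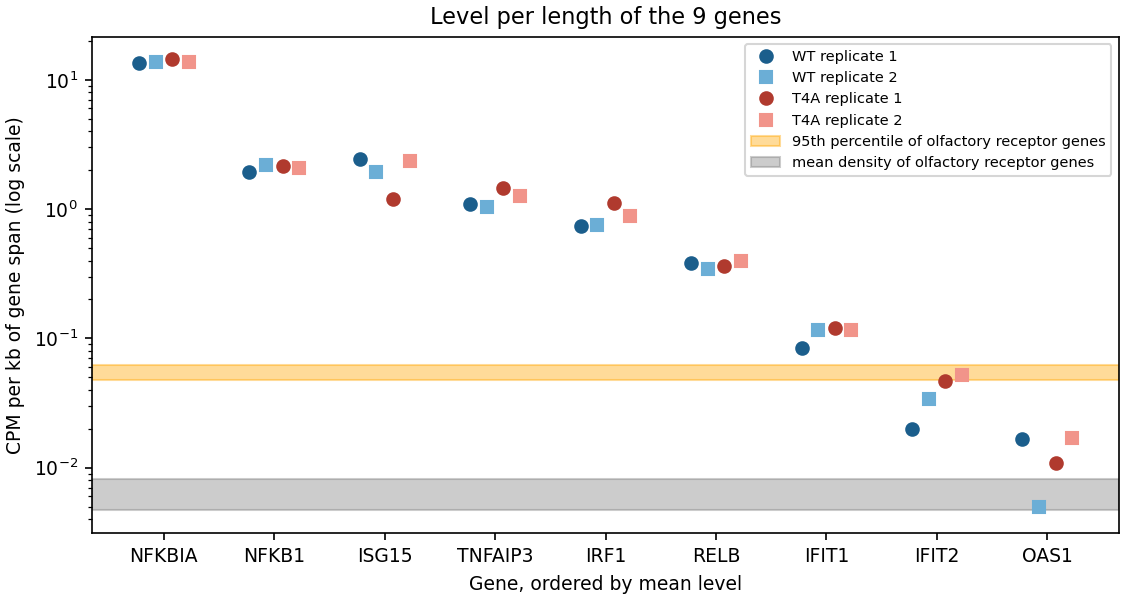
Level of the 9 genes as CPM per kb of listed gene span (log axis) in each library, ordered by mean level, with bands for the mean and the 95th percentile of 414 olfactory receptor genes over the libraries. NFKBIA lies highest near 13.8 CPM per kb, while IFIT2 and OAS1 lie within or below the band of the 95th percentile.

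Among the 9 genes, IRF1 had the smallest p, though it did not pass the test. IRF1 (chr5:132440440-132508719, minus strand) encodes a transcription factor that interferon gamma and NF-kB both induce, and its promoter held the kappaB match printed above. It had 50.4 and 51.4 CPM in WT replicates 1 and 2 and 76.7 and 59.9 CPM in T4A replicates 1 and 2. Both T4A libraries lay above both WT libraries, and T4A replicate 1 was the highest, at 1.51 times the WT mean against 1.18 times for T4A replicate 2. The means were 50.9 ± 0.724 CPM in WT and 68.3 ± 11.9 CPM in T4A (SD, n = 2). The log2 fold change was 0.42 ± 0.12 (SE, 95% interval 0.14 to 0.71), a 1.34-fold difference, with an edgeR quasi-likelihood p of 0.0083 and an adjusted p of 0.231. A difference as large or larger in either direction was fitted for 25.6% of all genes tested. Without T4A replicate 2, IRF1 passed the test at 0.59 with an adjusted p of 5.81e-05, and it also passed in DESeq2 at 0.43 with an adjusted p of 0.0329. Over all 12 alternatives its adjusted p ran from 5.81e-05 to 0.751. IRF1 lies inside an unnamed gene on the other strand that had 118 and 114 counts in WT and 82 and 60 counts in T4A, against 1972 to 2576 counts of IRF1.

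ISG15 (chr1:1001138-1014540, plus strand), which encodes a ubiquitin-like protein that interferon induces strongly, split the T4A libraries. Its levels were 32.6 and 26.0 CPM in WT and 16.0 and 31.6 CPM in T4A. T4A replicate 1 was lowest, at 0.545 times the WT mean, while T4A replicate 2 lay between the WT libraries at 1.08 times that mean, so the groups overlapped. The log2 fold change was −0.30 ± 0.27 (SE, 95% interval −0.92 to 0.32) with an adjusted p of 0.609. Its value rested on the choice of T4A library: it was −0.87 without T4A replicate 2, with an adjusted p of 1.01e-06, and 0.13 without T4A replicate 1, with an adjusted p of 0.705. Over all 12 alternatives its adjusted p ran from 1.01e-06 to 0.919. ISG15 and IRF1 thus lay on opposite sides of the WT libraries in T4A replicate 1, the library that stood apart.

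IFIT1 (chr10:89392546-89406487) and IFIT2 (chr10:89283694-89309271) encode proteins that interferon induces and that act on foreign RNA. Both are on the plus strand, with IFIT3, another interferon-stimulated gene, between them. IFIT1 had 46 and 72 counts in WT and 56 and 56 counts in T4A, or 1.18, 1.63, 1.67 and 1.62 CPM. The groups overlapped, with WT replicate 1 the only low library, and the log2 fold change was 0.22 ± 0.32 (SE, adjusted p = 0.753). It was 0.0092 without WT replicate 1 and 0.49 without WT replicate 2. IFIT2 had 20 and 38 counts in WT and 40 and 46 counts in T4A, or 0.511, 0.862, 1.19 and 1.33 CPM. Both T4A libraries lay above both WT libraries in CPM, with WT replicate 2 (0.862) and T4A replicate 1 (1.19) the nearest. Before scaling to library size, these were 38 and 40 counts. The log2 fold change of IFIT2 was 0.87 ± 0.40 (SE, 95% interval −0.06 to 1.79, adjusted p = 0.346). Only 67.0% of the IFIT2 span is free of another gene on its strand. Both genes lie inside LIPA, a lysosomal lipase gene on the other strand, which had 1476 to 1866 counts, and the part of its reads in the IFIT counts was not tested.

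OAS1 (chr12:112905856-112933219, plus strand), which encodes an enzyme that double-stranded RNA activates, had 18 and 6 counts in WT and 10 and 16 counts in T4A. WT replicate 2 was lowest and WT replicate 1 about level with T4A replicate 2, so the groups overlapped. Its log2 fold change of 0.37 had a 95% interval of −1.21 to 1.94 (adjusted p = 0.815), too wide to give a direction.

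Among the NF-kB genes, TNFAIP3 was the only one past an unadjusted p of 0.05. TNFAIP3 (chr6:137867214-137883312, plus strand) encodes A20, an enzyme that edits ubiquitin chains and damps NF-kB signaling, and its promoter held a pair of kappaB matches. It had 17.8 and 16.6 CPM in WT and 23.3 and 20.3 CPM in T4A. Both T4A libraries lay above both WT libraries, at 1.36 and 1.18 times the WT mean, and T4A replicate 1 was again the higher. The means were 17.2 ± 0.864 CPM in WT and 21.8 ± 2.14 CPM in T4A (SD, n = 2). The log2 fold change was 0.34 ± 0.13 (SE, 95% interval 0.04 to 0.65), a 1.27-fold difference, with an edgeR quasi-likelihood p of 0.0312 and an adjusted p of 0.289. It passed the test without T4A replicate 2, at 0.44 with an adjusted p of 0.0338, and its adjusted p ran from that value to 0.751 over all 12 alternatives. WAKMAR2, an RNA gene on the other strand that overlaps its span, had 148 and 170 counts in WT and 146 and 170 counts in T4A.

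NFKBIA (chr14:35401513-35404749, minus strand) encodes IkB alpha, the inhibitor that NF-kB itself induces. It had 43.5 and 44.6 CPM in WT and 46.5 and 44.6 CPM in T4A. The lower T4A library was above the higher WT library only before rounding, and the log2 fold change was 0.05 ± 0.09 (SE, 95% interval −0.17 to 0.26, adjusted p = 0.822). NFKBIA, at 1543 to 1965 counts, was thus among the most tightly measured of the 9 genes. Its interval reached up to 0.26 on the log2 scale and covers the spread between these libraries only. IRF1 and TNFAIP3, which share the kappaB letters, had larger fitted values. NFKB1, which shares them too, had a fitted value of 0.04, near that of NFKBIA. The differences between these genes were not tested.

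NFKB1 (chr4:102501331-102617302, plus strand) and RELB (chr19:45001449-45038198, plus strand) encode REL family subunits, of the canonical and the alternative NF-kB dimer in that order. NFKB1 had 225 and 252 CPM in WT and 251 and 241 CPM in T4A. WT replicate 1 was the low library and the groups overlapped, with a log2 fold change of 0.04 ± 0.10 (SE, 95% interval −0.18 to 0.27, adjusted p = 0.853). RELB had 14.1 and 12.6 CPM in WT and 13.3 and 14.5 CPM in T4A. Its groups overlapped as well, with a log2 fold change of 0.06 ± 0.14 (SE, 95% interval −0.27 to 0.39, adjusted p = 0.864).

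**Figure D3:**
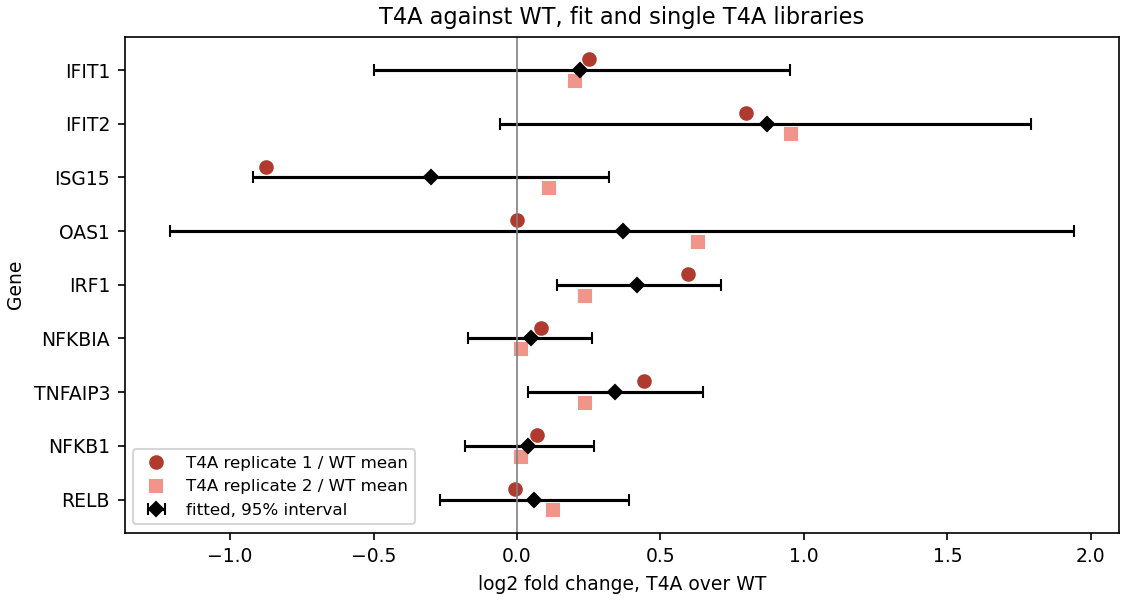
Fitted log2 fold change of T4A over WT for the 9 genes with its 95% interval (black), and the log2 ratio of each T4A library to the WT mean (red points). Only the intervals of IRF1 and TNFAIP3 lie above 0, and the T4A libraries of ISG15 fall on opposite sides of 0.

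Other genes of the 2 pathways were counted in 8 lists by role, of which 140 of 141 listed genes were matched and 112 were tested. None passed an adjusted p below 0.05. At an unadjusted p below 0.05, 5 of the 112 lay higher and 11 lay lower in T4A, beside 7.45% and 8.02% of all genes tested. Both T4A libraries lay above both WT libraries for 24 of the 112 and below them for 37, beside 24.8% and 24.7% of all genes tested. The median log2 fold change of the 112 genes was −0.044, with 47 above 0 and 65 below. Over all genes tested, 11634 were above 0 and 11687 below. RIGI, TLR9, IFNE, IRF9, IFITM1 and RNF31 have less than 10% of their span free of another gene on their strand and were hardly measured.

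Sensors and adaptors start the interferon route. Of 15 listed, 11 were tested, and TICAM1 alone, lower in T4A, was past an unadjusted p of 0.05. Past that p, 8.02% of all genes tested were lower and 7.45% higher. The median log2 fold change was 0.067. CGAS, the DNA sensor, had 5.01 and 5.29 CPM in WT and 6.46 and 4.37 CPM in T4A (log2 fold change 0.07, adjusted p = 0.897). STING1, its membrane-bound partner, had 170 and 149 counts in WT and 125 and 162 counts in T4A (log2 fold change 0.12, adjusted p = 0.817). Both genes were thus measured in all 4 libraries, with overlapping groups. TBK1, the kinase downstream of STING, had 86.3 and 95.5 CPM in WT and 97.1 and 88.1 CPM in T4A (log2 fold change 0.03, adjusted p = 0.911). The largest positive value among sensors with a mean count of at least 50 was 0.23 for DHX58, an RNA helicase of the RIG-I family (adjusted p = 0.767). TICAM1, the adaptor of TLR3, was the sensor list's gene past the unadjusted threshold: it had 14.1 and 13.1 CPM in WT and 8.34 and 9.69 CPM in T4A (log2 fold change −0.59 ± 0.16 (SE), adjusted p = 0.209).

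None of the 10 interferon genes listed passed the filter on low counts. IFNB1, the interferon that DNA sensing induces first, was listed at 0 counts in both WT libraries and at 8 and 2 counts in T4A, and IFNL1 at 2 and 3 counts in WT and 4 and 6 counts in T4A. The 10 genes together summed to 0.153 and 0.136 CPM in WT and 0.536 and 0.231 CPM in T4A. No fold was taken from such low counts, and T4A replicate 1 held the most. That library also had the highest mean level of olfactory receptor genes, 0.00811 CPM per kb against 0.00468 to 0.00563 in the others. Whether the interferon counts lay above background was not tested.

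Of 12 receptor and JAK-STAT genes, 10 were tested. Past an unadjusted p of 0.05, 1 was lower in T4A and none higher, beside 8.02% and 7.45% of all genes tested. Both T4A libraries lay below both WT libraries for 6 of the 10 and above them for 2, beside 24.7% and 24.8% of all genes. The median log2 fold change was −0.069. JAK1, the kinase that interferon receptors share, had 224 and 223 CPM in WT and 222 and 194 CPM in T4A (log2 fold change −0.10, adjusted p = 0.634). The ends of the list were IFNGR1, a chain of the interferon gamma receptor, at 0.16 (adjusted p = 0.488) and IL10RB, a chain of the interferon lambda receptor, at −0.56 (adjusted p = 0.406). Only 29.7% of the IL10RB span is free of another gene on its strand, and it had 38 to 80 counts.

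All 7 other interferon regulatory factors were tested and lay on both sides of 0. Their median log2 fold change of −0.34 turned to 0.153 with at least 10 counts in each library, to 0.168 with counts halved and to 0.199 without T4A replicate 1. Of the 7, 1 was higher in T4A and 1 lower past an unadjusted p of 0.05, beside 7.45% and 8.02% of all genes tested. IRF2, which competes with IRF1 for the same DNA sites, had 33.6 and 32.3 CPM in WT and 24.2 and 22.8 CPM in T4A. Both T4A libraries were lower, the replicates lay close together, and the adjusted p of 0.186 was the lowest among all 112 genes (log2 fold change −0.49 ± 0.11 (SE)). IRF8, a factor of blood cells, had 0.971 and 0.953 CPM in WT and 1.79 and 1.85 CPM in T4A (log2 fold change 0.92 ± 0.31 (SE), adjusted p = 0.254). IRF7, named after its values were seen, had 69 and 56 counts in WT and 9 and 73 counts in T4A, so that, like ISG15, it was low in T4A replicate 1 alone.

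Of 44 other interferon-stimulated genes, 39 were tested, with a median log2 fold change of 0.028. Past an unadjusted p of 0.05, 2 were higher in T4A and 1 lower, beside 7.45% and 8.02% of all genes tested. Of these 39, 11 had both T4A libraries above both WT libraries and 9 had both below, near the 24.8% and 24.7% of all genes tested. ADAR, an RNA-editing enzyme and the list's gene with the most counts, had 124 and 118 CPM in WT and 117 and 108 CPM in T4A (log2 fold change −0.11, adjusted p = 0.581). CMPK2, a mitochondrial nucleotide kinase, had 6.18 and 5.88 CPM in WT and 9.23 and 7.46 CPM in T4A (log2 fold change 0.47 ± 0.18 (SE), adjusted p = 0.292). IFI27, a small membrane protein gene, had 5.49 and 5.56 CPM in WT and 3.57 and 4.80 CPM in T4A (log2 fold change −0.40, adjusted p = 0.402).

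In the NF-kB route, the other subunits and inhibitors were all tested, 8 of 8, with a median of −0.12 on the log2 scale. Past an unadjusted p of 0.05, 1 was higher in T4A and 1 lower, beside 7.45% and 8.02% of all genes tested. RELA, the subunit p65 that pairs with the NFKB1 product, had 21.4 and 18.3 CPM in WT and 13.2 and 15.3 CPM in T4A (log2 fold change −0.48 ± 0.15 (SE), adjusted p = 0.241). NFKBIZ, a nuclear IkB protein gene that NF-kB induces, had 154 and 162 CPM in WT and 212 and 182 CPM in T4A (log2 fold change 0.32 ± 0.10 (SE), adjusted p = 0.246). Its groups did not overlap, and T4A replicate 1 was the highest, as for IRF1 and TNFAIP3.

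All 20 genes of the IKK complex and its regulators were tested, with none higher in T4A and 4 lower past an unadjusted p of 0.05 and a median log2 fold change of −0.13. Over all genes tested, 8.02% were lower past that p. Both T4A libraries lay below both WT libraries for 10 of the 20 and above them for 3, beside 24.7% and 24.8% of all genes tested. TRADD, an adaptor of the TNF receptor, had 2.45 and 2.04 CPM in WT and 1.22 and 1.53 CPM in T4A (log2 fold change −0.70 ± 0.30 (SE), adjusted p = 0.311). IKBKB, a kinase subunit of IKK, was named after its values were seen. It had 67.7 and 68.4 CPM in WT and 57.8 and 53.7 CPM in T4A (log2 fold change −0.29 ± 0.09 (SE), adjusted p = 0.245). CHUK, the other kinase subunit, had 78.4 and 79.4 CPM in WT and 85.1 and 77.8 CPM in T4A (log2 fold change 0.05, groups overlapping). IKBKG, the regulatory subunit NEMO, had the largest positive value of the list among genes with a mean count of at least 50, at 0.16 (adjusted p = 0.629), and TAB2, the adaptor with the most counts, had −0.10 (adjusted p = 0.621).

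Of 25 other NF-kB target genes, 24 were matched and 17 tested, with a median log2 fold change of −0.044. Past an unadjusted p of 0.05, 1 was higher in T4A and 2 lower, beside 7.45% and 8.02% of all genes tested. CXCL8, the chemokine interleukin 8, had 83 and 94 counts in WT and 116 and 135 counts in T4A, or 2.12, 2.13, 3.46 and 3.90 CPM (log2 fold change 0.79 ± 0.24 (SE), adjusted p = 0.235). TNIP1, which binds A20, had 83.4 and 86.2 CPM in WT and 71.2 and 70.9 CPM in T4A (log2 fold change −0.25 ± 0.08 (SE), adjusted p = 0.25). BIRC3, an inhibitor of cell death and a classic NF-kB target, stood at −0.33 on the log2 scale (adjusted p = 0.592). NF-kB targets thus lay on both sides of 0, with TNFAIP3, NFKBIZ and CXCL8 above and TNIP1 and BIRC3 below.

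**Figure D4:**
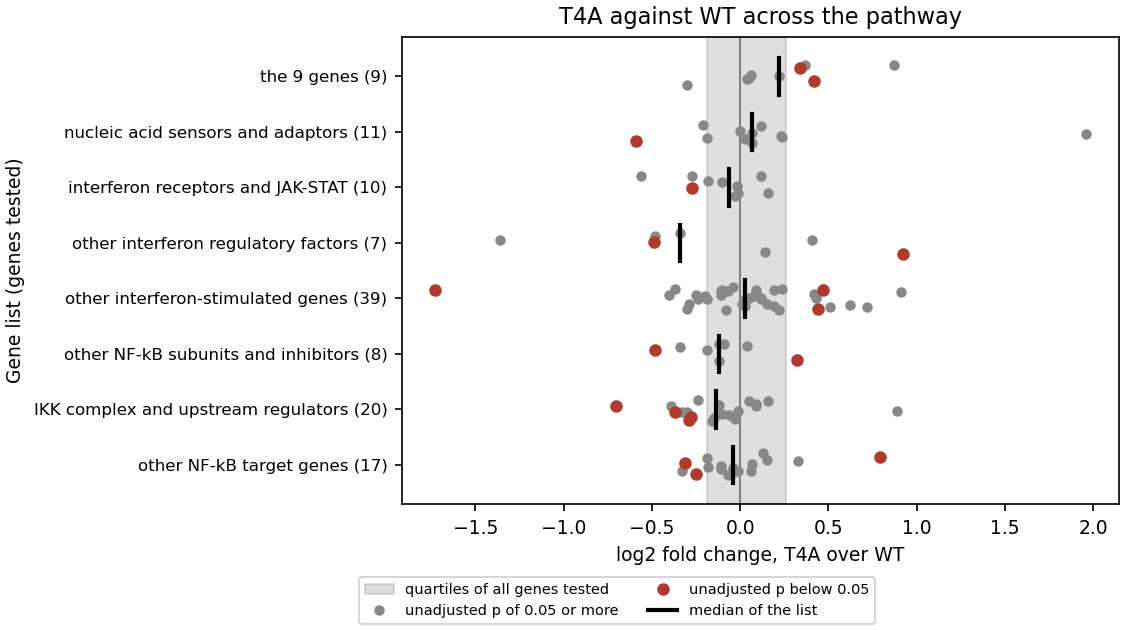
Log2 fold change of T4A over WT for each tested gene of the 9 chosen genes and of the 7 pathway lists with tested genes, with red points at an unadjusted p below 0.05, a black bar at each list's median and a grey band from the lower to the upper quartile of all genes tested. Every list has genes on both sides of 0, and the median of the other interferon regulatory factors, −0.34, is the one outside the band.

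Across the 4 libraries, the gene most like each of the 9 was found by the root mean square difference of centred log2 CPM, among listed or chosen genes with a mean count of at least 50. IRF1 was nearest to IFIT3, an interferon-stimulated gene with 3.93 and 3.95 CPM in WT and 5.96 and 4.69 CPM in T4A (difference 0.010). ISG15 was nearest to LGALS3BP, an interferon-stimulated secreted protein gene with 33.5 and 29.2 CPM in WT and 16.4 and 32.0 CPM in T4A (difference 0.056). TNFAIP3 was nearest to NFKBIZ (0.065), NFKBIA to the IKK kinase gene CHUK (0.026), NFKB1 to TBK1 (0.032) and RELB to the ubiquitin ligase gene TRIM25 (0.045). The low genes had larger differences, IFIT1 to PTGS2 (0.092), IFIT2 to CXCL8 (0.249) and OAS1 to DHX58 (0.421). These differences stand beside how far each gene's own values spread around their mean. That root mean square deviation was 0.034 for NFKBIA, 0.066 for NFKB1 and 0.078 for RELB. It was 0.188 for TNFAIP3, 0.201 for IFIT1, 0.242 for IRF1, 0.410 for ISG15, 0.503 for IFIT2 and 0.590 for OAS1. The small differences of NFKBIA, NFKB1 and RELB thus go with genes that hardly varied between libraries. With 4 libraries these likenesses are a description. IRF1 and IFIT3 were both highest in T4A replicate 1, and ISG15 and LGALS3BP were both lowest there. Among the 121 chosen and listed genes tested, T4A replicate 1 was the lowest library for 42 and the highest for 31, against 25 to 28 and 27 to 35 for the other libraries.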

How the data were processed

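The values analysed are raw counts deposited by the authors in 1 table for 60708 Ensembl genes, made with featureCounts. Per the labels, libraries were strand-specific. The submitters' processing notes name FastQC, cutadapt 4.6, STAR 2.7.11b, Picard, deepTools 3.5.6 and GRCh38. The counter's version and strand setting are not given in the sources used here. Gene lengths in the table are whole spans from start to end, so intronic and exonic reads were counted together. IFIT1 and IFIT2 lie inside a gene on the other strand and still had counts, so strand was used. Symbols were matched by stable identifier for 58742 genes, and 99.979% of 19045 protein-coding genes overlapped their GRCh38 position.

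Counts were tested with edgeR 4.0.16 in R 4.3.3 (TMM normalization, default filter on low counts, quasi-likelihood test, Benjamini-Hochberg adjustment over 23321 genes, threshold 0.05), after a check on simulated data. Normalized CPM used TMM library sizes. Standard errors were derived from the F statistic. Alternatives were DESeq2 1.42.0, library size scaling, other filters, protein-coding genes, a replicate block, subtraction of the olfactory receptor density, leaving out each library and, added after seeing the data, counts halved. Beside the 9 genes, POLR2A, CGAS, STING1 and IFNB1, the text names, per list, the gene with the most counts and, at a mean count of at least 50, the largest rise and fall, plus nearest patterns. The genes and lists were chosen with earlier results of these data known. No columns were left unused. Intervals cover the spread between libraries only.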

Additional observations from a re-analysis of the deposited data

How the results depend on the processing

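None of the 9 genes passed the test in the main setting, against 1 in DESeq2 (IRF1, 0.43, adjusted p = 0.0329, with no adjusted p given for IFIT1, IFIT2 and OAS1) and 0 to 3 when 1 library was left out. The 3 were ISG15 (−0.87), IRF1 (0.59) and TNFAIP3 (0.44), all without T4A replicate 2, the setting that leaves T4A replicate 1 alone in its group and assumes that it varies like WT. Without T4A replicate 1, the values of IRF1 and TNFAIP3 were both 0.26 (adjusted p = 0.306 and 0.419). Over all genes, 1 passed in the main setting, 910 in DESeq2, 150 with no filter on low counts, 533 with the replicate block, and 0 (without WT replicate 2, 1346 at an unadjusted p below 0.05) to 3407 (without T4A replicate 2) when 1 library was left out, with 2 without WT replicate 1 and 546 without T4A replicate 1. It was 1 under library size scaling, the filter of at least 10 counts, the fit of protein-coding genes, olfactory receptor density subtracted and counts halved. Same-numbered libraries did not deviate together (correlation 0.00498), so the numbers were not taken to pair them. With the replicate block, none of the 9 genes passed.

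Leaving out 1 library gave log2 fold changes of −0.87 to 0.13 for ISG15, −0.037 to 0.13 for NFKB1, −0.26 to 1.46 for OAS1, −0.016 to 0.14 for RELB, 0.26 to 0.59 for IRF1, 0.26 to 0.44 for TNFAIP3, 0.0092 to 0.49 for IFIT1 and 0.55 to 1.30 for IFIT2. ISG15 was above 0 without T4A replicate 1, NFKB1 below 0 without WT replicate 1 (−0.037), OAS1 below 0 without WT replicate 2 (−0.26), and RELB below 0 without WT replicate 2 (−0.016) or T4A replicate 2 (−0.0069). IRF1, TNFAIP3, IFIT2 and NFKBIA kept their direction under all 12 alternatives, and IFIT1 did so too but was close to 0 without WT replicate 1 (0.0092). OAS1 had no value with at least 10 counts or with counts halved. Medians of the sensors, the other interferon-stimulated genes, the other NF-kB subunits and inhibitors, the other NF-kB targets and the other interferon regulatory factors changed sign when single libraries were left out, that of the other NF-kB targets also under library size scaling (0.0076), while those of the IKK and the receptor list stayed below 0. IFIT1, IFIT2 and OAS1 had the lowest depth, 6 to 72 counts per library, and the part of depth in their error was not tested. The causes of these differences were not tested.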
